A study of Mus musculus with 2 samples.

Results

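The genes described here are 44 collagen genes and 10 matrix regulators, 54 of the 19059 genes counted. The collagens are all genes whose symbol is Col, a number, the letter a and a number; the regulators are Fn1, Timp1, Lox, Loxl2, Plod3, Dcn, Lum, Vcan, Tgfbi and Postn. They were followed as raw counts of unique molecular identifiers (UMIs, each standing for 1 captured probe pair) in dissociated, fixed cells of mouse dorsal root ganglia of the neck level, which hold the cell bodies of sensory neurons. All mice received tamoxifen, which activates the recombinase, and imiquimod, an agent that inflames the skin, for 3 days. The control genotype was Foxp3 CreER; Penk fl/WT, and that of the library named Treg_Penk_KO was Foxp3 CreER; Penk fl/fl. The recombinase is driven by Foxp3, the gene of the defining transcription factor of regulatory T cells, and the controls carry it too, with 1 floxed Penk allele. Each group is 1 pooled library. How many mice each pool held is unknown from the labels, and no test between the genotypes could be made.

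Collagens are secreted proteins of 3 chains wound into a helix. Fibrillar collagens such as types I and III form the tensile fibres of capsules and sheaths, type IV forms the network of basement membranes around vessels, glia and nerve fibres, and type VI forms beaded filaments close to cells. Chains are modified inside the cell by enzymes that include Plod3 and are crosslinked outside it by lysyl oxidases such as Lox and Loxl2. In a ganglion, fibroblasts lie among the nerve fibres, perineurial cells form the sheath, satellite glia wrap neuron bodies and Schwann cells wrap axons.

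Type I and type III collagen transcripts were highest in the same class, fibroblast-like cells, and the 250 bases before the annotated start of Col1a1 and Col3a1 are shown to set the 2 genes side by side. Both are from GRCm39, in lower case with the searched motifs in capitals, and neither window holds an annotated exon. The Col1a1 window is chr11:94826800-94827049 and the Col3a1 window chr1:45350448-45350697, both on the plus strand.
Col1a1 upstream: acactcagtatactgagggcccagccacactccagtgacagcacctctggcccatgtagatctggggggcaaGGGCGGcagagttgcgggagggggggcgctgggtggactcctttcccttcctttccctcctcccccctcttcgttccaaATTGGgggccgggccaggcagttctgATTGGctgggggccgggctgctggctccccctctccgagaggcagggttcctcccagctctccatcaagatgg
Col3a1 upstream: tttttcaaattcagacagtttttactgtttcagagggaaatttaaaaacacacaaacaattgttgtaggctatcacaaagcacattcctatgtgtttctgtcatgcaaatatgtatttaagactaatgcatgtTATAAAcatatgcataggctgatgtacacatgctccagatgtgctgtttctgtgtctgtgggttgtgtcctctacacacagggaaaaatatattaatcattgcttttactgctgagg

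The CCAAT box, the GC box (GGGCGG) and the TATA motif (TATAAA) were searched on both strands. The Col1a1 window held the CCAAT box on the minus strand (its reverse complement in capitals) at 99 and 73 bases before the start, and the GC box at 178 bases before it. The Col3a1 window held the TATA motif at 117 bases before the start. Of 27025 RefSeq promoters (GRCm38.p6) cut to the same length, 34.5% held the CCAAT box, 32.9% the GC box and 13.0% the TATA motif. A match describes letters only; no factor was measured. Guanine and cytosine made up 64.8% of the Col1a1 window and 35.2% of the Col3a1 window. In the annotation, Col3a1 and Col5a2 lie tail to tail on chromosome 1 with 16713 bases between them, and Dcn and Lum lie on the same strand of chromosome 10 with 42834 bases between them.

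The control library held 15710 barcodes with 259136217 UMIs and the Treg_Penk_KO library 12067 barcodes with 156441497 UMIs; 15690 and 12053 cells had at least 500 UMIs and 300 genes. Penk had 582 control UMIs and 4 Treg_Penk_KO UMIs, and Foxp3 10 and 5. The Penk UMIs of the control lay in 223 cells, more than all Foxp3 UMIs, so the difference in Penk was not limited to cells with Foxp3. In all, 4723 droplet barcodes occurred in both libraries. Neuron markers summed to between 5415 and 10621 CPM (counts per 1000000 UMIs) in the other compared and arachnoid-like classes, against 16466 and 16165 in neuron-like cells, so RNA of neuron genes was counted in every class.

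Cells were grouped into classes without using any of the 54 genes. Fibroblast-like cells numbered 1064 and 804 in the control and Treg_Penk_KO libraries, perineurial-like 552 and 479 and endothelial-like 542 and 454. Mural-like cells, of vessel walls and led by Notch3, Vtn and Abcc9, numbered 212 and 122. Myelinating Schwann-like cells numbered 2293 and 1700, macrophage-like 709 and 573 and neuron-like 6174 and 4654. Satellite glia-like cells numbered 1804 and 1305. A further 952 and 686 barcodes carried satellite glia markers at a median of 19792 and 14262 UMIs and are called deep satellite glia here; 49.9% and 56.7% of them lay in droplet barcodes found in both libraries, against 22.7% and 32.6% of the other satellite glia. A glial cluster of 274 and 241 cells led by C4b, Lgi4 and Gpnmb stayed unnamed, and its erythroid markers summed to 1376 and 0 CPM. Neuron markers summed to 5440 and 5493 CPM in this cluster, against 8248 and 8273 in satellite glia. Their part in levels compared between these classes was not tested. Other unnamed clusters are in no class here. The largest had 773 and 663 cells, was led by haemoglobin genes and Adcyap1 and was best matched by peptidergic C neuron markers. Another had 257 and 248 cells. A cluster of 21 and 24 cells led by Acta2, Myh11 and Tagln, genes of smooth muscle, was thus left out of the mural-like class. The classes described held 14639 of 15690 and 11118 of 12053 cells. Arachnoid-like cells, of the coverings of the nerve root, numbered 62 and 68 and were too few to compare between the libraries. The defining lists were present in the classes they named: fibroblast markers summed to 16009 and 19348 CPM in fibroblast-like cells, perineurial markers to 7055 and 6966 in perineurial-like cells and mural markers to 9815 and 10978 in mural-like cells.

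Probes for different genes differ in number and efficiency, so levels were compared across classes and libraries within a gene and never between genes. CPM is the UMI count of a gene per 1000000 UMIs of its class and library. Intervals are exact, at 95%, and describe counting error, not the spread between mice, preparations or cells. Highest and next class are meant among the 10 compared classes, which leaves out arachnoid-like cells and the small cluster described last. Where 2 values are given, the control comes first.

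**Figure D1:**
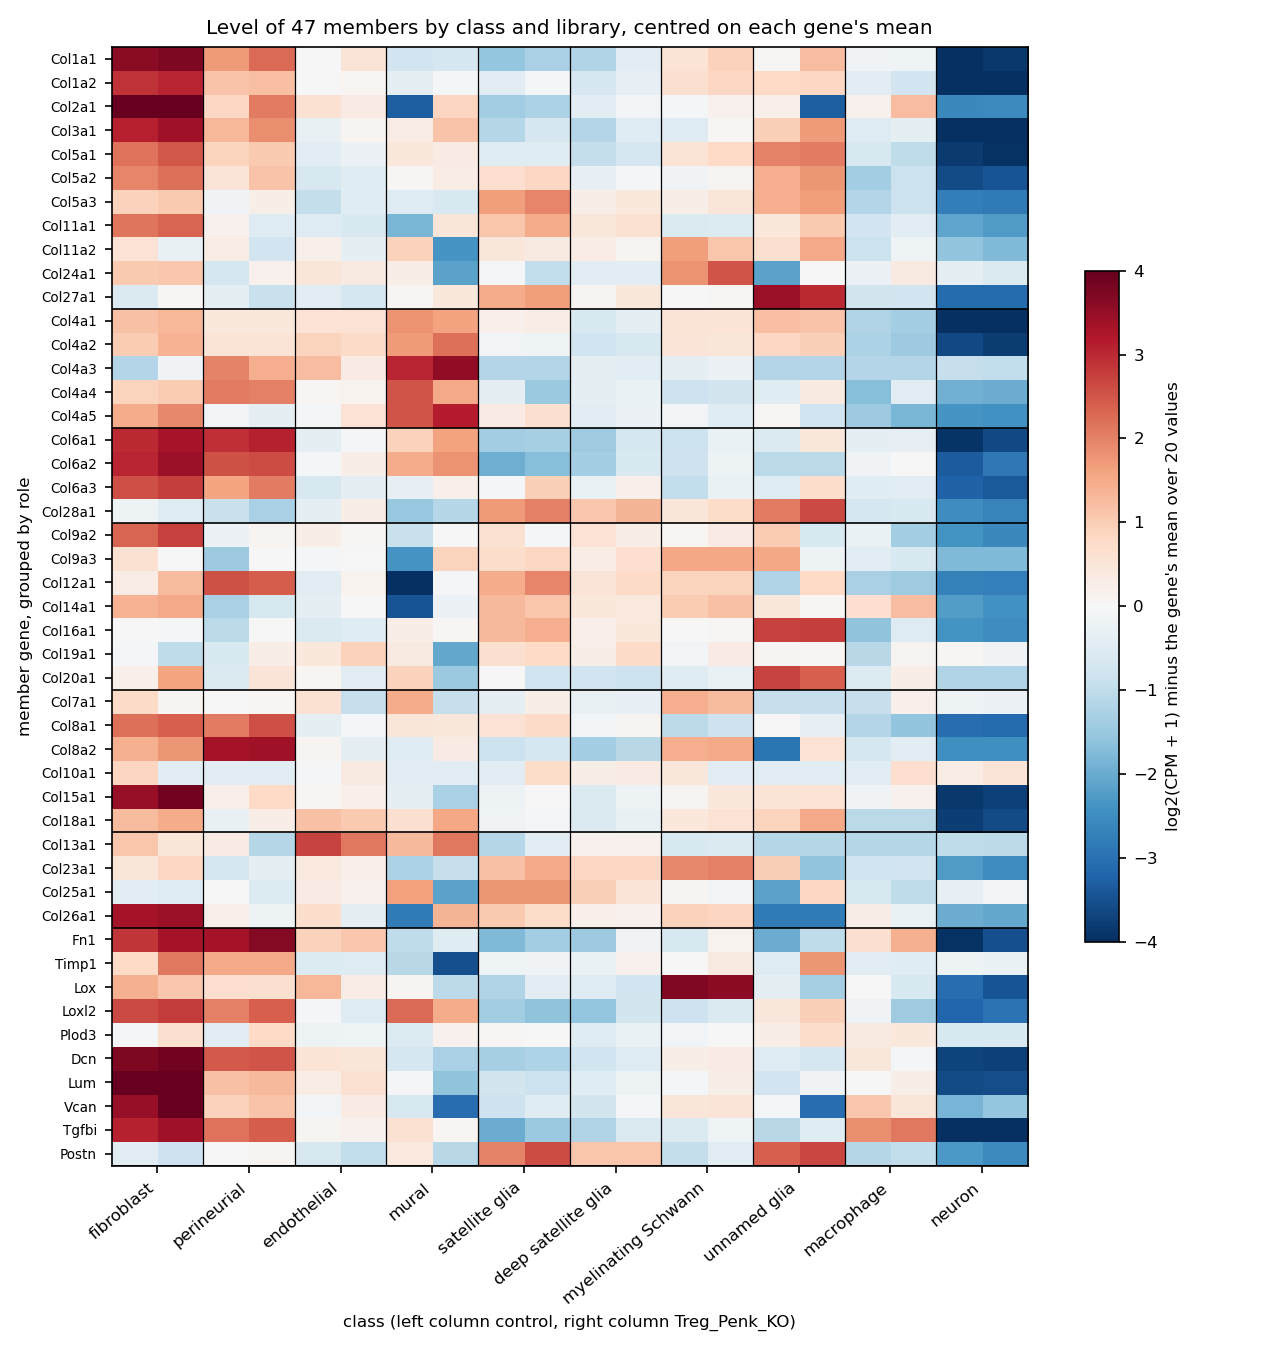
The heat map has the 47 members with at least 100 UMIs over both libraries down the side, grouped by role, and 10 classes across, each with the control on the left and Treg_Penk_KO on the right; colour is log2(CPM + 1) minus the gene's mean over the 20 values. Col1a1, at 3959 and 4375 CPM, is highest in fibroblast-like cells and Lox, at 484 and 445, in myelinating Schwann-like cells.

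Of the 54 genes, 7 had fewer than 100 UMIs over all cells: Col9a1, Col6a4, Col6a5, Col6a6, Col17a1, Col22a1 and Col4a6. For 38 of the 54 the same class was highest in both libraries. Among these, 23 had at least 100 UMIs in that class in each library. Of the 23, 16 were highest in fibroblast-like cells and 3 in myelinating Schwann-like cells (Lox, Col23a1 and Col24a1), with Fn1 highest in perineurial-like cells, Col4a1 in mural-like cells, Col5a3 in satellite glia and Col16a1 in the unnamed glia.

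Among the fibrillar collagens, Col1a1, a chain of type I collagen, was at 3959 CPM (3854 to 4067) in control and 4375 CPM (4244 to 4509.8) in Treg_Penk_KO in fibroblast-like cells. Perineurial-like cells came next at 1059.6 and 1583 CPM, and neurons were at 14.1 and 21.3. Col1a2, the other type I chain, was at 3566 and 4012 CPM in fibroblast-like cells, and Col3a1, the type III chain, at 2363 and 2824. Both libraries placed the 3 genes highest in the same class. Col5a1 and Col5a2, type V chains found within type I fibres, were at 246 and 302 and at 212 and 255 CPM there. Col2a1, the main fibril chain of cartilage, was at 202 and 177 CPM in fibroblast-like cells and at 16.6 and 40.5 in perineurial-like cells, the next class. Cartilage markers summed to 208 and 255 CPM in the fibroblast-like cells and bone markers to 92.1 and 28.2; their part in the Col2a1 level was not tested.

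Col5a3 differed from the other type V chains in its highest class, with 375 CPM (349.6 to 402) in control and 455 CPM (422 to 489) in Treg_Penk_KO in satellite glia, 322 and 371 CPM in the unnamed glia and 222 and 240.2 in fibroblast-like cells. Col27a1 was highest in the unnamed glia, at 277 and 206 CPM (80 and 60 UMIs), with satellite glia next at 72.2 and 81.5. These fibrillar chains were thus counted most in glial clusters.

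Basement membrane chains were spread over more classes. Col4a1, with 337 and 153 UMIs in mural-like cells, was at 1457 CPM (1305 to 1621) in control and 1290.0 CPM (1094 to 1511) in Treg_Penk_KO. Fibroblast-like cells were at 943 and 1062 CPM, the unnamed glia at 972 and 921 and endothelial-like cells at 624 and 624, and neurons at 24.7 and 21.9. Fibroblast-like cells and the unnamed glia changed places between the libraries. Col4a2, the partner chain of Col4a1, was also highest in mural-like cells, at 575 and 826 CPM. The 2 genes lie head to head on chromosome 8 with overlapping annotated ends. Col4a3, Col4a4 and Col4a5, chains of more specialised membranes, were sparse, with 143, 572 and 669 UMIs over all cells.

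Among the compared classes, type VI chains were highest in fibroblast-like cells, at 419 and 527 CPM for Col6a1, 442 and 566 for Col6a2 and 264 and 302 for Col6a3. Col6a1 in perineurial-like cells was close behind, at 406 and 454 CPM. Col28a1, a collagen with von Willebrand domains, was highest in glia: 322 CPM (259.6 to 394) in control and 474 CPM (399 to 560.5) in Treg_Penk_KO in the unnamed glia, and 249.8 and 311 CPM in satellite glia. Neurons were lowest for it, at 12.6 and 11.0 CPM.

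Of the fibril-associated collagens, Col16a1 was highest in the unnamed glia at 391 and 399 CPM, with satellite glia next at 143 and 160.0. Among the compared classes Col12a1 was highest in perineurial-like cells, at 107 and 97.2 CPM, and Col9a2 in fibroblast-like cells, at 87.6 and 118. The 3 genes thus had 3 different highest classes. Col15a1, a collagen of the outer face of basement membranes, was at 1420.3 CPM (1357 to 1485) in control and 1832 CPM (1747 to 1919.8) in Treg_Penk_KO in fibroblast-like cells, and at 183 and 219 CPM in the next class of each library. Col8a2, a short-chain network collagen, was highest in perineurial-like cells at 76.0 and 78.0 CPM. Col23a1, a transmembrane collagen, was highest in myelinating Schwann-like cells at 128 and 136 CPM, with satellite glia at 75.0 and 96.3.

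The regulators also divided by class. Dcn, decorin, a small proteoglycan that binds collagen fibres, was at 10089.7 CPM (9921 to 10261) in control and 11013 CPM (10804 to 11225) in Treg_Penk_KO in fibroblast-like cells. It was at 4212 and 4349.7 CPM in perineurial-like cells and 57.9 and 56.5 in neurons. Lum, lumican, of the same family, was at 884 and 945 CPM in fibroblast-like and 122 and 133 in perineurial-like cells. Both were thus lower in the sheath class than in fibroblast-like cells. Tgfbi, a matrix adhesion protein, was at 1287 and 1580.3 CPM in fibroblast-like, 679 and 809 in perineurial-like and 544 and 649.8 in macrophage-like cells. Fn1, fibronectin, was at 725 CPM (677 to 776) in control and 908 CPM (849.7 to 969.7) in Treg_Penk_KO in perineurial-like cells, where the single highest cell held 18.3% and 17.7% of its UMIs. Fibroblast-like cells were next for Fn1, at 519.7 and 722 CPM.

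Lox, which oxidises lysines of collagen and elastin, was at 484 CPM (468 to 501) in control and 445 CPM (425 to 465) in Treg_Penk_KO in myelinating Schwann-like cells. Its next class, fibroblast-like cells, was at 98.7 and 78.3 CPM. Lox thus shared its highest class with Col24a1, a minor fibrillar chain, at 14.4 and 24.5 CPM there, and not with the type I and III chains. Loxl2, of the same enzyme family, was highest in fibroblast-like cells at 112 and 127 CPM. Postn, periostin, was highest in the unnamed glia at 107 and 131 CPM from 31 and 38 UMIs, with satellite glia at 81.0 and 124. The intervals in the unnamed glia, 72.8 to 152 and 92.4 to 179, hold those satellite glia levels. Plod3, which hydroxylates and glycosylates collagen lysines, was the most even: its lowest class, neurons, was at 57.9 and 58.0 CPM, and its highest was macrophage-like cells in the control (115 CPM) and perineurial-like cells in the Treg_Penk_KO library (155 CPM).

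Arachnoid-like cells had Fn1 at 1499.7 and 1853 CPM, above all 10 compared classes in both libraries, and Dcn at 1537 and 1255. Of the members with at least 20 UMIs in the class, 3 of 19 in the control (Fn1, Col18a1 and Timp1) and 6 of 10 in the Treg_Penk_KO library were above every compared class. Those 6 were Fn1, Col12a1 (76.0 and 434 CPM, 35 and 45 UMIs), Col6a1 (291 and 705 CPM), Col6a2 (243 and 753 CPM), Col8a1 (47.7 and 299 CPM) and Col18a1 (171 and 232 CPM). The highest cell held 40.5% and 23.4% of the Fn1 UMIs and 53.5% and 17.7% of the Dcn UMIs of the class. These levels rest on few cells.

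Within fibroblast-like cells the genes differed by cluster. The largest cluster, of 623 and 475 cells led by Crispld2, Scara5 and Apod, had Lum at 1446 and 1526 CPM and Col15a1 at 2290.3 and 3001. A cluster of 32 and 41 cells, with Pi16 and Ccn2 among its leading genes, had Lum at 37.6 and 192 and Col15a1 at 169 and 177. The Pi16-led cells had Col14a1, a fibril-associated collagen, at 469.5 and 339 CPM (25 and 23 UMIs), against 11.2 and 4.30 in the largest cluster. Col12a1 was at 282 and 280.3 against 16 and 36.5 CPM, and Lox at 563 and 457 (30 and 31 UMIs) against 104 and 47.3. The direction was the same in both libraries for these 5 genes, which were not used to form the clusters and were picked after their values were seen.

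The genes outside the list with the most similar pattern were found over the 20 values of class and library, among 11920 genes with at least 1000 UMIs. For Col1a1 they were Gsn, Apod and Dpep1 (Pearson's r of log2(CPM + 1) 0.97, 0.97 and 0.96), for Col4a1 Ryk, Ctdsp2 and Reck (0.98, 0.96 and 0.95) and for Col28a1 Itgb8, Foxd3 and Gpr37l1 (0.98, 0.97 and 0.97). Gsn and Dpep1 were among the markers that named the fibroblast-like class. The points share 2 libraries, their depth and their free RNA, so these values describe levels only.

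Neurons held 25.2% and 20.1% of all members' UMIs, since they held most UMIs of the libraries, but the members made up 0.0338% and 0.0345% of neuron UMIs, against 2.87% and 3.27% in fibroblast-like cells. Several members nevertheless differed between neuron subtypes, with the same subtype highest in both libraries.

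**Figure D2:**
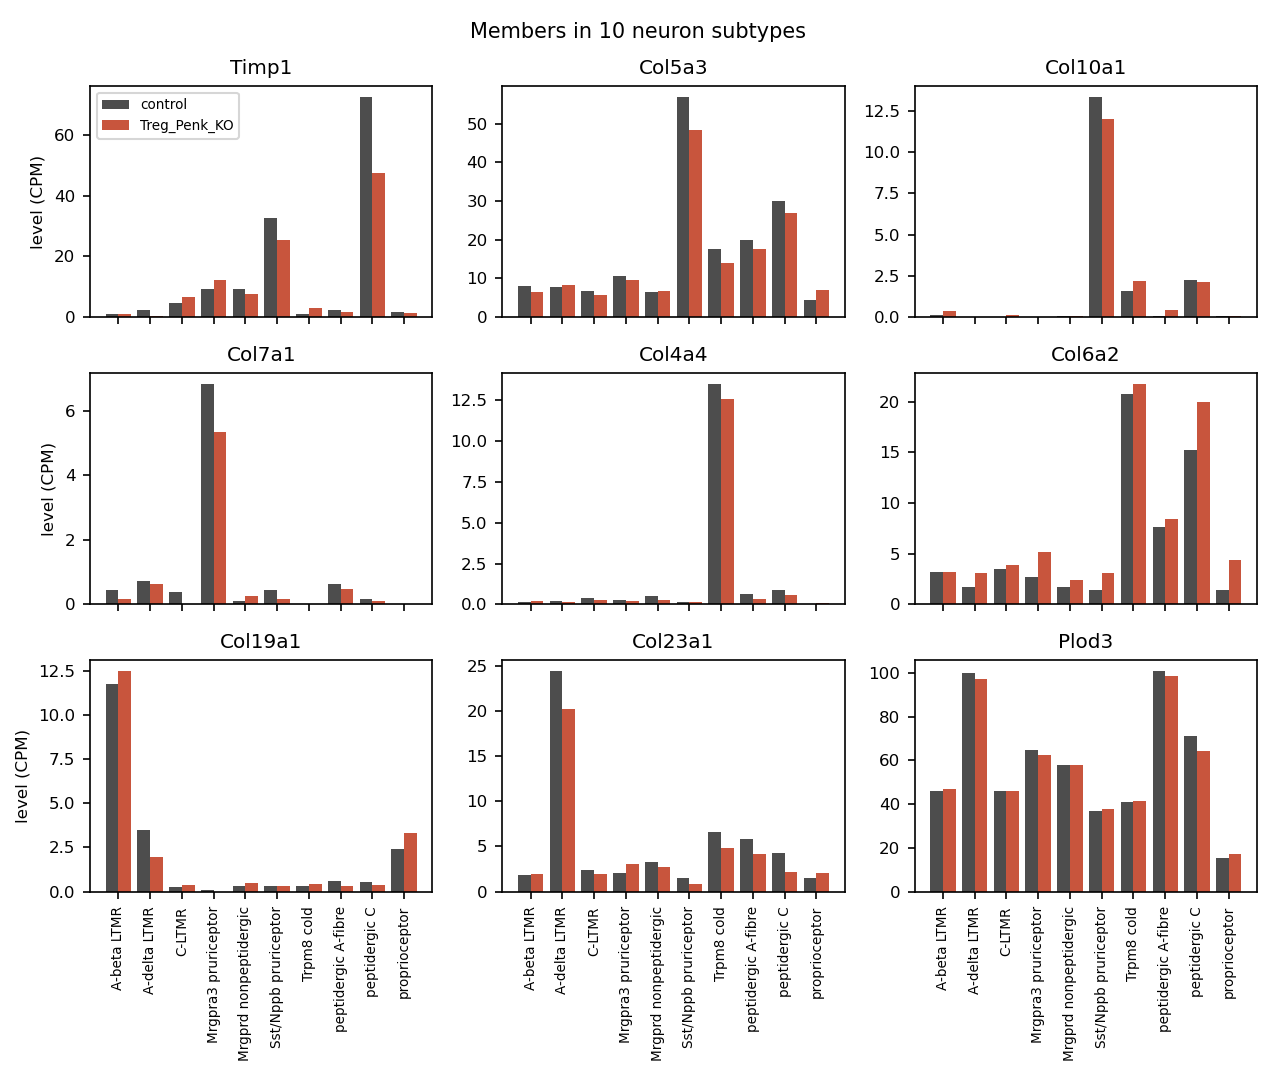
Bars give the CPM of 9 members in 10 neuron subtypes, dark for the control and red for Treg_Penk_KO, each bar from 1 library. Timp1 is highest in peptidergic C neurons at 72.4 and 47.5 CPM and Col7a1 in Mrgpra3 neurons at 6.83 and 5.35.

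Timp1, an inhibitor of matrix metalloproteinases, was at 72.4 and 47.5 CPM (829 and 398 UMIs) in peptidergic C neurons and 32.5 and 25.5 in Sst/Nppb pruriceptors, a class of itch neurons, and at most 12.2 in the other 8 named subtypes. Its ratio of Treg_Penk_KO to control in peptidergic C neurons was 0.655 (0.580 to 0.739), against 0.967 (0.895 to 1.04) over all neurons. The peptidergic C neurons meant here are a named cluster of 421 and 352 cells. They leave out the larger unnamed cluster with peptidergic C markers and haemoglobin genes. In Sst/Nppb neurons the Timp1 ratio was 0.784 (0.633 to 0.970). The interval lay below 1 in 5 of the 10 named subtypes and above 1 in 0. Neuron clusters without a named subtype, pooled, had 29 and 50 UMIs and a ratio of 4.74 (2.94 to 7.77). They joined a cluster best matched by proprioceptor markers, of 267 and 120 cells, and a cluster best matched by peptidergic C markers, of 15 and 141. Their mix thus differed between the libraries, and its part in this ratio was not tested. Col5a3 was at 56.9 and 48.5 CPM in Sst/Nppb neurons and at most 30 elsewhere. Col10a1, a network collagen known from growth plates, had 91 and 70 UMIs in Sst/Nppb neurons, 13.3 and 12.0 CPM, and at most 2.27 CPM in the other named subtypes. Col7a1, the anchoring fibril chain, had 72 and 51 UMIs in Mrgpra3 pruriceptors, 6.83 and 5.35 CPM, and at most 0.736 CPM elsewhere. So 3 collagen genes were highest in pruriceptor subtypes.

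Col4a4 had 43 and 29 UMIs in Trpm8 cold neurons, 13.5 and 12.6 CPM, and Col6a2 was at 20.7 and 21.7 CPM there. Col19a1 was highest in A-beta low-threshold mechanoreceptors, at 11.8 and 12.5 CPM, and Col23a1 in A-delta ones, at 24.4 and 20.2. Plod3 was at 101 and 98.8 CPM in peptidergic A-fibre neurons and 100.1 and 97.2 in A-delta mechanoreceptors, and at 15.6 and 17.1 in proprioceptors. For Plod3 these 3 subtypes kept their order in both libraries.

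Between the libraries, a member was counted as past the step where its ratio of Treg_Penk_KO to control was at least 1.5 or at most its inverse, among members with at least 100 UMIs over both libraries in the class. With 1 library a group this is a size and no test. The share of all genes past the same step is given beside the first count in each class.

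**Figure D3:**
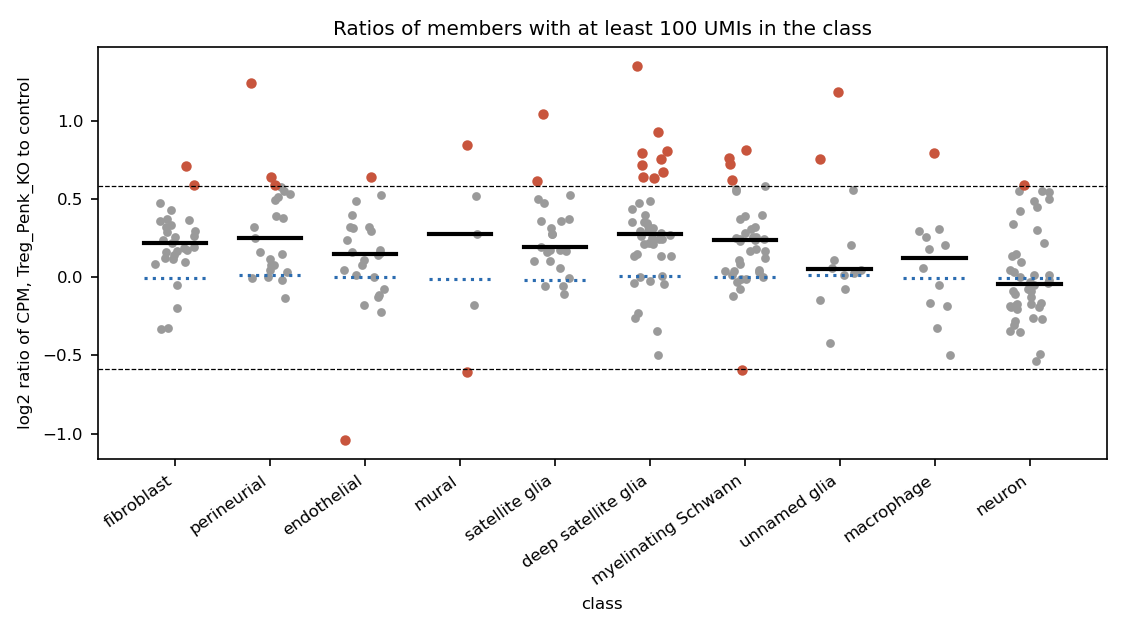
Points are log2 ratios of CPM, Treg_Penk_KO to control, for members with at least 100 UMIs in the class, red where past the step of 1.5 (dashed lines); the black line is the members' median and the blue dotted line that of all genes with at least 100 UMIs. The members' median is 1.16 as a ratio in fibroblast-like cells and 0.972 in neurons, against 0.995 and 0.995 for all genes.

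In fibroblast-like cells 2 of 29 members were past the step on the higher side, against 1.05% of genes, and 0 on the lower side, against 1.11%. Plod3 was at 85.4 and 140.0 CPM, a ratio of 1.64 (1.27 to 2.12), and Vcan, versican, a large proteoglycan, at 92.1 and 139, a ratio of 1.51 (1.17 to 1.94). The members' median ratio was 1.16, against 0.995 for all genes. This was not particular to the class. In every other compared class except neurons the members' median was also above 1. It ran from 1.04 in the unnamed glia to 1.21 in mural-like cells and deep satellite glia. In fibroblast-like cells Fn1 had a ratio of 1.39 (1.248 to 1.54), Col15a1 1.29 (1.21 to 1.38), Col3a1 1.20 (1.13 to 1.26), Col1a1 1.11 (1.06 to 1.15) and Dcn 1.09 (1.06 to 1.12). Lox, at 0.793 (0.590 to 1.06), and Col2a1, at 0.874 (0.717 to 1.06), were below 1 with intervals that include it. The fibroblast markers that named the class had a summed ratio of 1.21, and their part in these ratios was not tested. At a finer clustering, with the members kept in the clustering, or with each cell thinned to 500 UMIs, 0 of the members were past the step on the higher side.

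In perineurial-like cells 3 of 23 were higher (1.34% of genes) and 0 lower (1.5%): Plod3 at 2.36 (1.78 to 3.16), Col5a2 at 1.56 (1.18 to 2.08) and Col15a1 at 1.51 (1.23 to 1.86). For Plod3 the highest cell held 6.67% and 41.2% of 75 and 153 UMIs, and without the 3 highest cells its ratio was 1.47. None of the 3 stayed past the step without those cells. In mural-like cells, with 5 members above the minimum, Col3a1 was higher at 1.80 (1.28 to 2.52) and Dcn lower at 0.656 (0.439 to 0.960), against 2.8% and 2.05% of genes, and Col4a1 had a ratio of 0.886 (0.727 to 1.08). Dcn rested on 110 and 37 UMIs, and at a finer clustering its ratio was 1.06. Fibroblast-like and perineurial-like cells were the highest and next classes for both Col3a1 and Dcn. Their markers summed in the mural-like cells to ratios of 0.867 and 0.566, and their part was not tested.

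In endothelial-like cells Col28a1 was higher, at 1.56 (1.28 to 1.90), and Lox lower, at 0.486 (0.390 to 0.603), of 24 members (0.81% and 1.26% of genes). Lox had 285 and 123 UMIs there, 92.2 and 44.8 CPM. Markers of myelinating Schwann cells, the class in which Lox was highest, summed to 9813 and 6896 CPM in the same endothelial-like cells, a ratio of 0.703; their part in the Lox ratio was not tested. In myelinating Schwann-like cells Lox had a ratio of 0.919 (0.868 to 0.971).

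In satellite glia 2 of 23 members were higher (0.682% of genes; 0 lower, 1.09%), Col6a3 at 2.07 (1.57 to 2.73) and Postn at 1.53 (1.246 to 1.89). Col6a3 had 89 and 137 UMIs and no more than 4.49% and 1.46% in the highest cell. In the unnamed glia 2 of 12 were higher (2.52%; 0 lower, 1.56%), Col1a1 at 2.28 (1.78 to 2.92) and Col3a1 at 1.69 (1.38 to 2.08). The highest cell held 16.5% and 15.8% of those Col1a1 UMIs and 4.64% and 14.0% of the Col3a1 UMIs. Fibroblast markers summed to 5163 and 5583 CPM in this cluster, a ratio of 1.08, and their part was not tested. In myelinating Schwann-like cells 4 of 38 were higher (0.688%) and 1 lower (0.514%): Fn1 at 1.76 (1.51 to 2.06), Col24a1 at 1.70 (1.28 to 2.25), Col6a3 at 1.65 (1.32 to 2.08) and Col6a2 at 1.54 (1.26 to 1.88), with Col11a2 at 0.663 (0.457 to 0.948). Arachnoid markers summed to 108 and 176 CPM in the myelinating Schwann-like cells, a ratio of 1.63, and to 65.7 and 127 in the unnamed glia, a ratio of 1.94, where mural markers had a ratio of 1.36; their part was not tested. In macrophage-like cells 1 of 12 was higher (2.11%; 0 lower, 1.82%), Fn1 at 1.74 (1.36 to 2.22). The highest cell held 13.3% and 25.3% of those Fn1 UMIs, and without the 3 highest cells the ratio was 1.24.

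Deep satellite glia had 9 of 42 members higher, against 0.841% of genes, and 0 lower, against 0.663%. Fn1 was at 25.0 and 64.0 CPM, a ratio of 2.56 (2.33 to 2.81), with 2.21% and 21.7% of its UMIs in the highest cell. Loxl2 had a ratio of 1.90 (1.52 to 2.37), Vcan 1.75 (1.35 to 2.27), Col6a2 1.73 (1.54 to 1.95) and Col1a1 1.69 (1.62 to 1.76), and Col6a1, Col19a1, Col3a1 and Tgfbi lay between 1.55 and 1.65. Without the 3 highest cells of each gene, Fn1 was at 1.66 and Col1a1 at 1.59. With cells of droplet barcodes found in 1 library only, 4 members were past the step, and with the members kept in the clustering 1. Fibroblast markers in these barcodes summed to 1937 and 2128 CPM, a ratio of 1.10, endothelial markers to 353 and 425, a ratio of 1.21, and arachnoid markers to 59.5 and 94.6, a ratio of 1.59; their part was not tested.

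In neurons 1 of 44 members was higher (0.4% of genes) and 0 lower (0.964%), Col1a1 at 1.51 (1.43 to 1.59). The highest cell held 2.35% and 12.2% of its 2897 and 2624 UMIs, and without the 3 highest cells the ratio was 1.29. The neurons' median over members was 0.972, against 0.995 for all genes.

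Of the 38 members with at least 100 UMIs in 3 or more compared classes, 9 had a ratio above 1 in each of those classes (Col15a1, Col3a1, Col5a2, Col6a1, Col6a2, Fn1, Loxl2, Tgfbi and Vcan) and 2 a ratio below 1 in each (Col11a2 and Lox). Of the 10715 genes with as many classes, 6.43% were above 1 in each and 6.12% below. The classes come from the same 2 libraries and are not replicates.

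A cluster of 32 cells in the Treg_Penk_KO library had 1 cell in the control, 0.265% of cells (Clopper-Pearson 0.182% to 0.375%). Its leading genes included Mmp2, Aebp1, Emp1, Mmp19 and Thbs1. It was best matched by fibroblast markers, but had fewer than the 50 cells needed for a name and stayed unnamed. Fibroblast markers summed to 14734 CPM in its Treg_Penk_KO cells, against 19348 in fibroblast-like cells of that library. A cluster mostly of 1 library may be that library and not a cell type. Members made up 13.0% of its UMIs in the Treg_Penk_KO library. Col1a1 was at 29342 CPM, Col3a1 at 16398 and Fn1 at 18880.5, against 4375, 2824 and 722 in fibroblast-like cells of the same library. Of 24 members with at least 30 UMIs in both, 21 were over 2-fold higher than in fibroblast-like cells. Timp1 was 33.3-fold higher, Fn1 26.2-fold and Plod3 15-fold, while Dcn was at 0.916 and Col15a1 at 0.805 of the fibroblast-like level. So decorin and Col15a1 did not share the high level of the fibrillar chains. Neuron markers summed to 1268 CPM in the cluster's Treg_Penk_KO cells, against 8457 in fibroblast-like cells of that library. Their part in these folds was not tested.

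**Figure D4:**
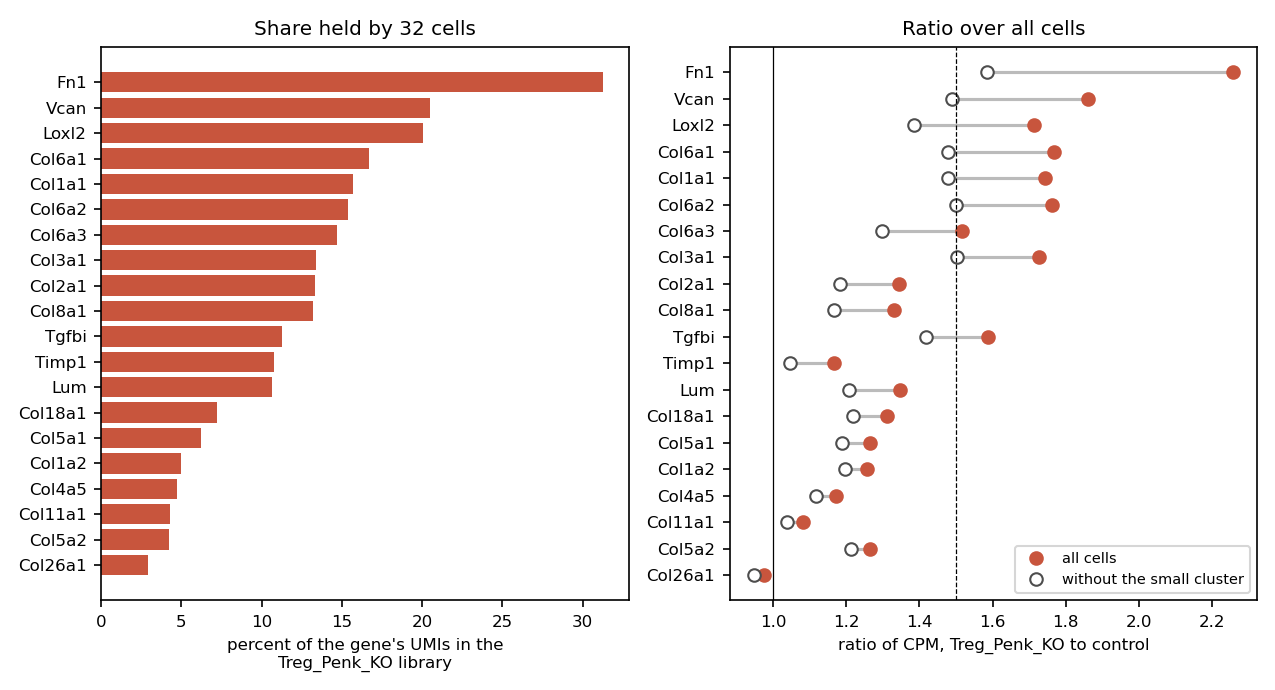
On the left, bars give the percent of each gene's Treg_Penk_KO UMIs held by the 32 cells of the small cluster; on the right, the ratio of Treg_Penk_KO to control over all cells (filled) stands beside that without the cluster (open), with the step of 1.5 dashed. Fn1 is at 31.3%, and its ratio goes from 2.26 to 1.58.

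The 32 cells held 31.3% of the library's Fn1 UMIs, 20.5% of Vcan, 20.0% of Loxl2, 16.7% of Col6a1, 15.7% of Col1a1 and 13.4% of Col3a1, and over 10% for 13 members. Over all cells, 9 of 47 members were higher (1.02% of genes) and 0 lower (0.513%). Without the cluster 3 were past the step: Fn1 went from 2.26 to 1.58, Col6a2 from 1.76 to 1.5 and Col3a1 from 1.73 to 1.5. The other 6 were under it: Vcan went from 1.86 to 1.49, Col6a1 from 1.77 to 1.48, Col1a1 from 1.74 to 1.48, Loxl2 from 1.71 to 1.38, Tgfbi from 1.59 to 1.42 and Col6a3 from 1.52 to 1.30. A ratio over all cells also moves with the share of each class, and more cells of a type and more RNA per cell cannot be told apart in it.

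Other matrix genes were followed in 8 lists in fibroblast-like cells, counting members above the minimum, against 1.05% of all genes past the step on the higher and 1.11% on the lower side. Of procollagen folding and hydroxylation 1 of 11 was past the step on the higher side, Colgalt2, a collagen galactosyltransferase, at 1.78 (1.22 to 2.60); Serpinh1, the collagen chaperone, was at 664 and 899 CPM, a ratio of 1.35 (1.23 to 1.49). Of matrix proteases and inhibitors 1 of 8 was past it, Adamts1, a metalloproteinase, at 1.58 (1.14 to 2.19). Of other proteoglycans and matricellular proteins 1 of 13 was past it, Ccn2, a matricellular protein, at 1.97 (1.61 to 2.43), and of TGF-beta signalling 1 of 9, the same gene. Ccn2 was among the leading genes of the Pi16-led cluster, which held 32 of 1064 and 41 of 804 fibroblast-like cells. The part of that share in the Ccn2 ratio was not tested. Propeptide cleavage and crosslinking (0 of 5), basement membrane partners (0 of 9), collagen receptors (0 of 8) and elastic fibres (0 of 9) had 0 past the step, and no list had a gene on the lower side in this class. The medians of the 8 lists lay between 1.03 and 1.15, against 0.995 for all genes. In neurons all 8 medians were below 1, from 0.854 to 0.988, against 0.995 for all genes. On the lower side there (0.964% of genes) was 1 of 13 collagen receptors, Itga2, at 0.570 (0.477 to 0.680). So were 1 of 12 elastic fibre genes, Ltbp2, at 0.594 (0.514 to 0.685), and 1 of 16 matrix proteases and inhibitors, Fap, at 0.644 (0.404 to 1.00). On the higher side (0.4%) was 1 of 20 other proteoglycans and matricellular proteins, Fmod, fibromodulin, at 1.55 (1.10 to 2.18). The remaining lists had 0 past the step in neurons. In endothelial-like cells 5 of the 8 medians were below 1, over a range of 0.934 to 1.17. On the lower side there (1.26% of genes) was 1 of 8 matrix proteases and inhibitors, Adamts1, at 0.622 (0.462 to 0.832). So were 1 of 14 genes of procollagen folding and hydroxylation and 1 of 11 other proteoglycans and matricellular proteins. On the higher side (0.81%) were 1 of 5 genes of propeptide cleavage and crosslinking and 1 of the same 11. In perineurial-like cells Ccn2 was lower (1.5% of genes), at 0.594 (0.474 to 0.742), 1 of 10 other proteoglycans and 1 of 7 genes of TGF-beta signalling. Deep satellite glia had 1 of 15 matrix proteases and inhibitors higher (0.841%). The unnamed glia had 1 of 3 genes of procollagen folding higher (2.52%) and 1 of 7 basement membrane partners lower (1.56%). Macrophage-like cells had 1 of 8 genes of procollagen folding higher (2.11%) and 1 of 5 elastic fibre genes lower (1.82%).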

How the data were processed

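The authors deposited raw UMI counts per gene and barcode for 2 libraries, made with Cell Ranger (7.0 per the labels' protocols, 8.0.1 per the file headers) on GRCm39 from tissue fixed in 4% paraformaldehyde and read with gene probes. Barcodes under 500 UMIs or 300 genes were removed, and counts were scaled to 10000, and clustered in scanpy 1.11.5 on 3000 variable genes without the 54 members (40 principal components, 15 neighbours, Leiden resolution 1.0); stromal clusters were clustered again. Classes were named from 34 marker lists, with naming thresholds set after seeing the clusters. No doublet caller was run and all doublets were kept. CPM intervals are exact Poisson, ratio intervals exact conditional binomial and shares Clopper-Pearson, all 95%, in scipy 1.17.1. The ratio calculation was tested on simulated data. Members named for their highest class had the same class in both libraries and at least 100 UMIs there in each; other genes named were past the step of 1.5 or show a role's range. Members and lists were chosen with earlier results of these data known. Alternatives changed cell filters, clustering, thinning to 500 UMIs, the minimum and the step. Protein features were not analysed here. Promoters came from RefSeq (GRCm38.p6; 40 of 54 members matched) and windows from GRCm39.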

Additional observations from a re-analysis of the deposited data

Results flagged for a closer look

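The cluster with Mmp2 and Aebp1 among its leading genes lies outside the compared classes. It had 32 cells in the Treg_Penk_KO library and 1 in the control, and the collagen genes and matrix regulators made up 13.0% of its UMIs in the Treg_Penk_KO library. It drew attention because that share was above the share in each of the compared classes. Among the main ratios and counts between the libraries, its cells enter only those over all cells.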

How the results depend on the processing

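No paired analysis was possible because each group is 1 library, and leaving out a replicate was not possible for the same reason. Under 15 alternatives, 2 of them (both on the small cluster) chosen after seeing the data, 59 member ratios gave 548 values. Of these, 416 lay within the counting interval of the main ratio and 129 outside it. Another 3 changed direction, which was looked for only in the 38 ratios past the step. The values that changed direction were Col19a1 in deep satellite glia, 0.940 with the members kept among the variable genes, Dcn in mural-like cells, 1.06 at a Leiden resolution of 2.0, and Vcan in deep satellite glia, 0.925 with each cell thinned to 500 UMIs. The cause was not tested. The median log2 ratio in fibroblast-like cells was 0.22 and became 0.64 with the small cluster counted with them. In neurons it was -0.04 and became 0.12 with each cell counted equally. Over all cells, 9 members were past the step on the higher side: 5 with each cell counted equally, 5 thinned, 18 at a smaller step, 1 at a step of 2 and 3 without the small cluster. Summed over the 10 classes, 26 were higher: 10 thinned, 44 at a minimum of 30 UMIs, 16 at 300, 75 at a smaller step, 4 at a step of 2 and 41 with the small cluster among fibroblast-like cells. In the same sum 3 were lower: 5 with droplet barcodes found in 1 library only, 5 with each cell counted equally, 0 thinned, 9 at a minimum of 30 UMIs, 1 at 300, 14 at a smaller step and 1 at a step of 2. The share of all genes past the step was computed only at the main settings, so the counts under the alternatives cannot be read against it. Depth limits the sparse genes most: 7 members had under 100 UMIs in all.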
